A study of Mus musculus with 21 samples.

Results

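Gene expression was measured by RNA sequencing in mouse bone marrow-derived macrophages (BMDMs), and the question taken up here is how far TNF and the IL-4/IL-13 cytokines acted independently of each other after 24 h. Macrophages grown from bone marrow of wild-type C57BL/6 mice 8 to 10 weeks old in the presence of M-CSF, the growth factor that drives macrophage differentiation, received the cytokines at 10 ng/ml. The 4 groups compared were untreated cells at the start (Ctrl_0h), cells given IL4 and IL13 (IL_24h), cells given TNF (TNF_24h) and cells given all the cytokines together (IL_TNF_24h), with 3 libraries each. These are 12 of the 21 libraries of the series. The labels do not state how many mice or separate cultures lay behind the 3 libraries of a group, so the p-values below measure the spread between these libraries, which may be technical.

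The comparison is an interaction on the log2 scale: the change from IL_24h to IL_TNF_24h minus the change from Ctrl_0h to TNF_24h. An interaction of 0 means that TNF multiplied a gene's level by the same factor with IL and without it. A negative interaction means that the factor was smaller with IL, and a positive one that it was larger. In addition each gene was placed by its level in IL_TNF_24h: above both single treatments, below both, or between them. That placement uses no 0 h library. Levels are given as CPM, a gene's counts scaled to the total of its library after multiplying that total by the library's TMM normalization factor. That factor was 0.863 in TNF_24h_1 and 1.07 in IL_24h_2, so CPM differs from counts scaled to the plain total. Means are given ± SD over the 3 libraries of a group. A gene is called when its adjusted p is under 0.05 in edgeR's quasi-likelihood test with Benjamini-Hochberg adjustment over all genes tested.

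IL-4 and IL-13 bind receptors that share the IL-4 receptor alpha chain and act through JAK kinases on the transcription factor STAT6, which turns on the genes of alternative activation, among them Arg1, Retnla and Mrc1. TNF binds the receptors TNFR1 and TNFR2 and frees NF-kB from its inhibitors, and NF-kB turns on inflammatory cytokines and chemokines as well as its own inhibitors. In macrophages TNF also induces small amounts of type I interferon, which raises interferon-stimulated genes at later times.

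The 12 libraries held 28.1 to 48.7 M counts each, and 15581 genes were tested. The summed level of 8 macrophage markers was 11654 to 34086 CPM, with the most counts from the lysozyme gene Lyz2, at up to 24464 CPM. Library 2 of Ctrl_0h and library 1 of IL_TNF_24h stood apart from the others of their groups. In Ctrl_0h_2, 27761 genes had a count, against 17482 and 17243 in the other controls, and 1473 of 12938 genes were at least 2 times as high as in both. In IL_TNF_24h_1, 273 of 12152 genes were at least 2 times as high and 552 at most 0.5 times as high as in both others. Results that rest on these libraries are given with and without them, and where a group is left with 3 counts or fewer no fitted interaction is given. The groups also fell into 2 sets by sex-linked genes: Xist was at 216 to 283 CPM in Ctrl_0h and TNF_24h and at 0 to 0.145 in IL_24h and IL_TNF_24h, while the Y-linked Ddx3y was at 0 in the first set and at 41.8 to 50.9 CPM in the second. A difference between IL_TNF_24h and TNF_24h, or between IL_24h and Ctrl_0h, crosses the sets and cannot be told apart from them. The interaction subtracts a TNF difference within the first set from one within the second. It therefore takes the difference between the sets to be additive on the log2 scale, and a set that answers TNF differently and an effect of IL on the answer to TNF cannot be told apart in any interaction. TNF_24h and Ctrl_0h also differ by 24 h of culture, which IL_24h and IL_TNF_24h share, so an effect of culture time and of TNF cannot be told apart in the interaction. In these bulk samples fewer cells of a type and less RNA per cell cannot be told apart either.

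The interaction was called for 3758 genes, 24.1% of those tested. It was higher in 1812 genes (11.6%) and lower in 1946 (12.5%), with a median over all genes of 0.08. By at least 1 on the log2 scale it was higher in 1083 genes (6.95%) and lower in 1102 (7.07%). Without Ctrl_0h_2 and IL_TNF_24h_1 the numbers were 1402 higher and 2194 lower, and 2933 genes were called in the same direction both ways. Of the 1812 genes with a higher interaction, 261 were at least 3 times as high in Ctrl_0h_2 as in both other controls, against 24 of the 1946 with a lower one. Leaving out IL_24h_2 alone reduced the higher calls to 1043.

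Most genes with a called interaction were called for TNF alone and were not called for TNF with IL. The interaction is the difference between these same comparisons, so the shares of the called genes below follow in part from how they were chosen. TNF alone raised 3258 genes (20.9% of those tested) and lowered 3796 (24.4%) relative to Ctrl_0h, while relative to IL_24h the addition of TNF raised 940 (6.03%) and lowered 791 (5.08%). Among the 1946 genes with a lower interaction, 1414 (72.7%) rose with TNF alone and were not called with IL, 328 (16.9%) rose in both settings, and 54 (2.77%) rose alone and fell with IL. Another 90 (4.62%) were not called with TNF alone and fell with IL. Among the 1812 with a higher interaction, 1370 (75.6%) fell with TNF alone and were not called with IL, 152 (8.39%) fell in both, 60 (3.31%) fell alone and rose with IL, and 114 (6.29%) were not called with TNF alone and rose with IL.

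**Figure D1:**
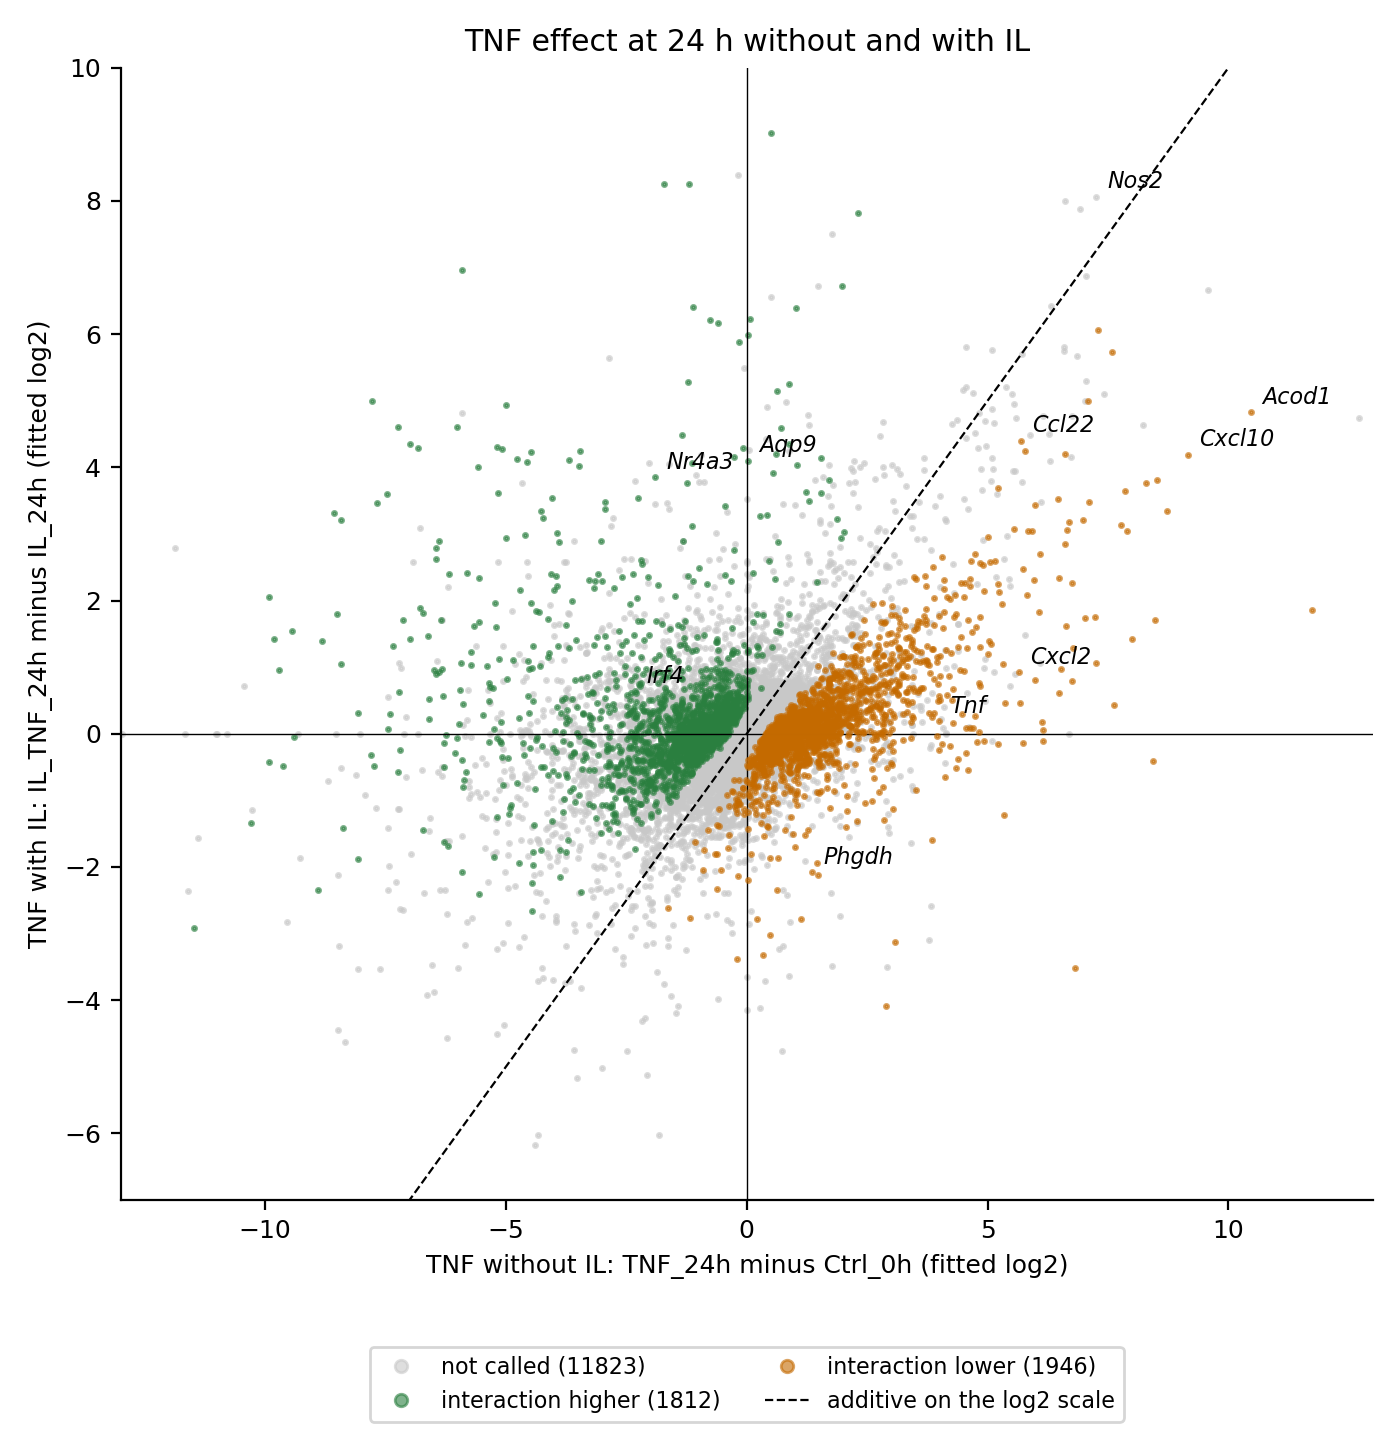
The effect of TNF on each of 15581 genes without IL (x axis, TNF_24h minus Ctrl_0h) and with IL (y axis, IL_TNF_24h minus IL_24h), both as fitted log2 differences. The dashed line marks equal effects; 1812 genes called higher for the interaction lie above it and 1946 called lower lie below it, and most of both lie near 0 on the y axis.

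The genes of the TNF receptors and of signalling to NF-kB had lower interactions as a group. Of 24 genes on this list 19 had a lower interaction (12.5% of all genes) and none a higher one (11.6% of all genes), with a median of -0.89 against 0.08 over all genes, and without the 2 libraries the count was 18. TNF alone raised 22 of them (20.9% of all genes) and TNF with IL raised 11 (6.03% of all genes). Tnfrsf1b, the gene of TNFR2, was at 248, 181 and 237 CPM in Ctrl_0h, at 991, 952 and 939 in IL_24h, at 659, 749.7 and 772 in TNF_24h and at 1192, 1007 and 998 in IL_TNF_24h. It was high in every treated library and low in the controls, without overlap. Its interaction was -1.56 (SE 0.164, adjusted p = 1.53e-06): TNF alone changed it by 1.71 (SE 0.119, adjusted p = 8.37e-10), whereas the change on top of IL was 0.15 (SE 0.116, adjusted p = 0.562) and did not pass. Tnfrsf1a, the gene of TNFR1, had group means of 180.1 ± 22.4, 137 ± 7.68, 343 ± 27.3 and 105 ± 15 CPM in Ctrl_0h, IL_24h, TNF_24h and IL_TNF_24h, and an interaction of -1.31 (SE 0.182, adjusted p = 3.15e-05).

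Nfkbia, which encodes the inhibitor IkB-alpha, was at 77.2, 52.3 and 73 CPM in Ctrl_0h, at 51.7, 49 and 46.5 in IL_24h, at 533, 571 and 510.0 in TNF_24h and at 128, 127 and 125 in IL_TNF_24h. TNF_24h was the highest group, IL_TNF_24h came next, and no library of either overlapped the rest. The change with TNF alone was 2.99 (SE 0.126, adjusted p = 9.83e-13) and that with IL 1.36 (SE 0.119, adjusted p = 1.25e-07), an interaction of -1.63 (SE 0.167, adjusted p = 1.08e-06). Tnfaip3, the gene of the ubiquitin-editing inhibitor A20, was at 9.35, 5.41 and 8.03 CPM in Ctrl_0h, at 28.6, 24.2 and 24.8 in IL_24h, at 113, 134 and 161 in TNF_24h and at 115, 106 and 102 in IL_TNF_24h. IL_24h was intermediate, and the libraries of IL_TNF_24h overlapped those of TNF_24h. TNF changed Tnfaip3 by 4.16 (SE 0.169, adjusted p = 7.61e-13) alone and by 2.06 (SE 0.153, adjusted p = 1.36e-08) with IL, an interaction of -2.11 (SE 0.213, adjusted p = 9.82e-07). Traf1, an adaptor of TNF receptors, and Nfkb2, the precursor of the p52 subunit, had interactions of -1.5 (SE 0.168) and -1.16 (SE 0.216). For Rela, the p65 subunit, the interaction was -0.78 (SE 0.189). Rel, which encodes the subunit c-Rel, was one of the 5 genes not called, and its level in IL_TNF_24h, 117 ± 3.96 CPM, was above IL_24h (73.2 ± 6.57) and above TNF_24h (37.8 ± 8.51).

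On the IL-4 and IL-13 side, 6 of 11 genes of the receptors, their kinases and STAT6 had a lower interaction (12.5% of all genes) and none a higher one (11.6%). The median was -0.43, and 6 were lower without the 2 libraries. The receptor chain Il4ra did not pass, with group means of 73.5 ± 13, 61.4 ± 0.612, 73.9 ± 4.04 and 77.2 ± 3.4 CPM and an interaction of 0.32 (SE 0.208, adjusted p = 0.276). Stat6 itself was not called either, at -0.19. The kinase gene Tyk2 was at 76.8, 56.7 and 78.3 CPM in Ctrl_0h, at 147, 145 and 139 in IL_24h, at 234, 277 and 307 in TNF_24h and at 183, 161 and 150.0 in IL_TNF_24h. TNF_24h was highest, IL_TNF_24h lay just above IL_24h, and no groups overlapped. TNF alone changed it by 1.95 (SE 0.166, adjusted p = 1.31e-08), and its interaction was -1.75 (SE 0.228, adjusted p = 1.61e-05). Jak2 was lower in interaction, -1.65 (SE 0.222), yet its level was highest in IL_TNF_24h, with 13.1 ± 0.967, 66.6 ± 5.41, 115 ± 21.6 and 186 ± 28.9 CPM in the 4 groups.

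Of 12 feedback inhibitors of cytokine signalling, 7 had a lower interaction (12.5% of all genes) and none a higher one (11.6%). Their median was -1.28, and 8 were lower without the 2 libraries. Socs1, an inhibitor of JAK kinases in interferon and IL-4 signalling, was at 4.81, 17.3 and 5.78 CPM in Ctrl_0h, at 47.7, 39.9 and 26.8 in IL_24h, at 98.4, 99.4 and 87.3 in TNF_24h and at 63.6, 68.9 and 51.8 in IL_TNF_24h. The controls were lowest, and IL_TNF_24h lay between IL_24h and TNF_24h without overlap. The interaction of Socs1 was -2.67 (SE 0.479, adjusted p = 4.34e-04). Socs3, which acts on receptors of the gp130 family, was at 4.7, 16.5 and 5.25 CPM in Ctrl_0h, at 3.74, 3.09 and 2.27 in IL_24h, at 83.6, 90.3 and 85.3 in TNF_24h and at 8.81, 7.78 and 8.17 in IL_TNF_24h. TNF_24h stood far above every other group, and IL_24h was lowest. Its interaction was -1.86 (SE 0.47, adjusted p = 0.00744). Dusp2, a phosphatase of MAP kinases, had group means of 2.49 ± 0.157, 3.72 ± 0.389, 18.8 ± 2.58 and 2.6 ± 0.673 CPM and the lowest interaction of this list, -3.43 (SE 0.269, adjusted p = 5.28e-08). The cytokine Il10, which restrains inflammation, had means of 4.06 ± 0.382, 0.809 ± 0.246, 17.1 ± 0.682 and 0.435 ± 0.405 CPM and an interaction of -3.0 (SE 0.53, adjusted p = 3.71e-04).

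Inflammatory chemokines and cytokines rose with TNF alone, and many had lower interactions. Of 12 inflammatory chemokines, 9 were lower and 1 higher for the interaction, against 12.5% and 11.6% of all genes. Their median was -2.94 on the log2(CPM + 1) scale against 0.06 over all genes, and the counts were the same without the 2 libraries. TNF alone raised all 12 (20.9% of all genes), whereas on top of IL it raised 6 (6.03%) and lowered 3 (5.08%). Of 26 inflammatory cytokines and mediators, 14 were lower and none higher (median -1.60 on the same scale; 18 lower without the 2 libraries). TNF alone raised 24 of these and TNF with IL raised 19. The 10 lowest interactions by that scale, among genes called with and without the 2 libraries, were Cxcl10, Cd69, Acod1, Tnfsf10, Cxcl2, Cxcl9, Ccl12, Il27, Ccrl2 and Olfr56.

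The 250 bases upstream of the start site are shown for 3 of these genes, because NF-kB sites near the start are well known from inflammatory genes. They are taken from RefSeq on GRCm38.p6, written 5′ to 3′ on the strand of the gene. Capitals mark matches to a form of the NF-kB site (GGGA, any 2 bases, then TTCC) on either strand. Cxcl10 and Acod1 are shown for their rank; Cxcl2 was chosen after its match was seen.
Cxcl10, chr5:92348890-92349139, minus strand: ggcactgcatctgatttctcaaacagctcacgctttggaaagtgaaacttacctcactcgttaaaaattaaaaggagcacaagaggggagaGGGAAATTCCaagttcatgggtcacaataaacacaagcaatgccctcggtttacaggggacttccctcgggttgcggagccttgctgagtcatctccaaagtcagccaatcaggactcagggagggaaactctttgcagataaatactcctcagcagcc
Cxcl2, chr5:90903649-90903898, plus strand: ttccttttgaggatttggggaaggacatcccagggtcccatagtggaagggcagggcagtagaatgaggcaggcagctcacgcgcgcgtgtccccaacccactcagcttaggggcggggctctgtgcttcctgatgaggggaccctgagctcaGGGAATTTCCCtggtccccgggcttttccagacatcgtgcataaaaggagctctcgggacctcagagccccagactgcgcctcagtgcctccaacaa
Acod1, chr14:103046762-103047011, plus strand: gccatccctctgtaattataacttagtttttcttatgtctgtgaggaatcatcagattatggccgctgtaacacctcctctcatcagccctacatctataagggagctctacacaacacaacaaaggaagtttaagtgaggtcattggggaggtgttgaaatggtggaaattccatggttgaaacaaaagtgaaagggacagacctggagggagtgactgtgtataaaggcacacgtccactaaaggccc
The match of Cxcl10 lies 159 to 150 bases before the start, and Cxcl2 holds overlapping matches, GGGAATTTCC and GGAATTTCCC, that begin 97 and 96 bases before it. In all, 16 of the 20 genes named for the highest and lowest interactions had a promoter in the table, 21 promoters of 300 bases each (250 before and 50 after the start). Cxcl10 and Cxcl2 were the 2 genes with a match to this form, which 1.47% of 32851 promoters hold. The STAT6 form (TTC, any 4 bases, then GAA), which 6.95% hold, matched in Spint1 and Misp3, both with a higher interaction. A match describes the sequence and says nothing of binding in these cells.

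Cxcl10 encodes a chemokine for activated T cells and is a classical target of both NF-kB and interferon. It was at 5.0, 2.91 and 7.31 CPM in Ctrl_0h, at 0.409, 0.398 and 0.116 in IL_24h, at 2713, 3235 and 2728 in TNF_24h and at 13.6, 1.5 and 1.91 in IL_TNF_24h. The TNF_24h libraries were far above all others, IL_24h was lowest, and in IL_TNF_24h the first library stood above the other two. TNF alone changed Cxcl10 by 9.15 (SE 0.715, adjusted p = 4.06e-09) and TNF with IL by 4.19 (SE 0.714, adjusted p = 3.93e-04), for an interaction of -4.96 (SE 1.05, adjusted p = 0.00198). Without Ctrl_0h_2 and IL_TNF_24h_1 it was -6.48 (adjusted p = 4.36e-08).

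Cxcl2, a neutrophil chemokine, was at 3.87, 2.94 and 3.16 CPM in Ctrl_0h, at 1.69, 1.57 and 1.44 in IL_24h, at 164, 172 and 165 in TNF_24h and at 2.93, 2.64 and 3.36 in IL_TNF_24h. Only TNF_24h was high, and the libraries of IL_TNF_24h overlapped the controls. The interaction was -4.72 (SE 0.18, adjusted p = 3.47e-12). Acod1, which makes itaconate from a citric acid cycle intermediate, was at 1.04, 1.05 and 1.11 CPM in Ctrl_0h, at 10.2, 9.75 and 9.02 in IL_24h, at 1333, 1656 and 1552 in TNF_24h and at 404, 208 and 214 in IL_TNF_24h. Here IL_TNF_24h kept a high level, below TNF_24h and above IL_24h in every library. The interaction of Acod1 was -5.64 (SE 0.286, adjusted p = 3.15e-10), with TNF changing it by 10.47 (SE 0.27, adjusted p = 1.14e-15) alone and by 4.83 (SE 0.206, adjusted p = 2.66e-11) with IL.

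The cytokine Tnf itself was at 30.7, 25.4 and 23 CPM in Ctrl_0h, at 7.89, 8.06 and 7.82 in IL_24h, at 419, 469 and 371 in TNF_24h and at 11.2, 7.22 and 8.73 in IL_TNF_24h. TNF_24h was the only group above the controls, and the libraries of IL_24h and IL_TNF_24h overlapped. Its interaction was -3.8 (SE 0.216, adjusted p = 1.06e-09). Saa3, an acute-phase protein gene, had means of 2.35 ± 1.18, 2.56 ± 0.174, 300.5 ± 96.1 and 23.7 ± 0.662 CPM and an interaction of -3.78 (SE 0.411, adjusted p = 2.19e-06). Il1b was low throughout, with 0.266 ± 0.234, 0.38 ± 0.178, 2.99 ± 0.415 and 0.426 ± 0.385 CPM, and had an interaction of -3.24 (SE 0.707, adjusted p = 0.00245). Il27, which encodes a subunit of interleukin 27, had 0.808 ± 0.229, 0.187 ± 0.137, 45.2 ± 3.4 and 0.809 ± 0.408 CPM and an interaction of -3.73 (SE 0.576, adjusted p = 9.44e-05).

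The chemokines differed in what TNF did on top of IL. Ccl5 kept much of its response: its means were 1.93 ± 0.594, 2.63 ± 0.458, 375 ± 85 and 139 ± 46.7 CPM, with an interaction of -1.86 (SE 0.343, adjusted p = 5.50e-04). The monocyte chemokine Ccl2 and the macrophage inflammatory proteins Ccl3 and Ccl4 were the 3 that fell on top of IL. Ccl2 was at 20.6, 17.3 and 14.7 CPM in Ctrl_0h, at 21.4, 21.3 and 22.4 in IL_24h, at 90.5, 87.3 and 80.5 in TNF_24h and at 6.95, 10.3 and 9.07 in IL_TNF_24h. IL_TNF_24h was below both single treatments in every library. The change of Ccl2 with IL present was -1.31 (SE 0.134, adjusted p = 1.02e-06), against 2.3 (SE 0.136, adjusted p = 9.69e-11) with TNF alone, and its interaction was -3.6 (SE 0.191, adjusted p = 4.48e-10). For Ccl4 the interaction was -2.79 (SE 0.255) and for Ccl3 -1.57 (SE 0.182). Cxcl16, a membrane-bound chemokine, was the chemokine with a higher interaction, 0.82 (SE 0.147, adjusted p = 4.48e-04), and means of 214 ± 12.8, 65.3 ± 2.97, 591 ± 78.3 and 318 ± 4.86 CPM. Cxcl9 and Ccl12 had interactions of -5.37 (SE 1.4, adjusted p = 0.0091) and -4.22 (SE 1.33, adjusted p = 0.0277), and outside TNF_24h their group means were at most 0.449 and 1.55 CPM. Without IL_24h_1 the IL_24h libraries held 3 counts of Cxcl9 or fewer. Ccl12 missed the threshold without Ctrl_0h_2 or without any single library of IL_24h, with adjusted p values of 0.0517 to 0.124.

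Other named genes of this group were Cd69, an early activation marker, the death ligand Tnfsf10 and the chemerin-binding receptor Ccrl2. Cd69 was at 0.374, 0.406 and 0.522 CPM in Ctrl_0h, at 0.0584, 0.0469 and 0.0776 in IL_24h, at 92.2, 115 and 104 in TNF_24h and at 1.38, 0.14 and 0.169 in IL_TNF_24h. Outside TNF_24h every library was at 1.38 CPM or less. Its interaction was -4.85 (SE 1.26, adjusted p = 0.00855), with an adjusted p of 0.0611 when IL_24h_3 was left out. Tnfsf10 had means of 0.801 ± 0.607, 1.53 ± 0.208, 73.4 ± 12.8 and 3.03 ± 2.29 CPM and an interaction of -5.57 (SE 0.62, adjusted p = 2.75e-06). For Ccrl2 the means were 6.3 ± 1.47, 5.06 ± 0.814, 178 ± 9.46 and 8.67 ± 5.85 CPM and the interaction -4.05 (SE 0.411, adjusted p = 1.00e-06).

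C3, a gene of complement, had means of 22.9 ± 4.72, 324 ± 7.7, 1248 ± 203 and 6152 ± 475 CPM, so that IL_TNF_24h was placed above both single treatments, while its interaction was lower, -1.52 (SE 0.237, adjusted p = 1.04e-04). Nos2, the inducible nitric oxide synthase, was at 0, 0.947 and 0 CPM in Ctrl_0h, at 0.409, 0.422 and 0.505 in IL_24h, at 33.5, 52.8 and 48.8 in TNF_24h and at 269, 46.2 and 44.6 in IL_TNF_24h. The first library of IL_TNF_24h was far above the others of its group, which lay at the level of TNF_24h. Nos2 was placed above both single treatments with all libraries and not without the 2 that stand apart. Its interaction was 0.81 (SE 1.24, adjusted p = 0.674) over all libraries and -0.66 (adjusted p = 0.601) without IL_TNF_24h_1. The controls other than Ctrl_0h_2 held no counts of Nos2, so no interaction is given without it.

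**Figure D2:**
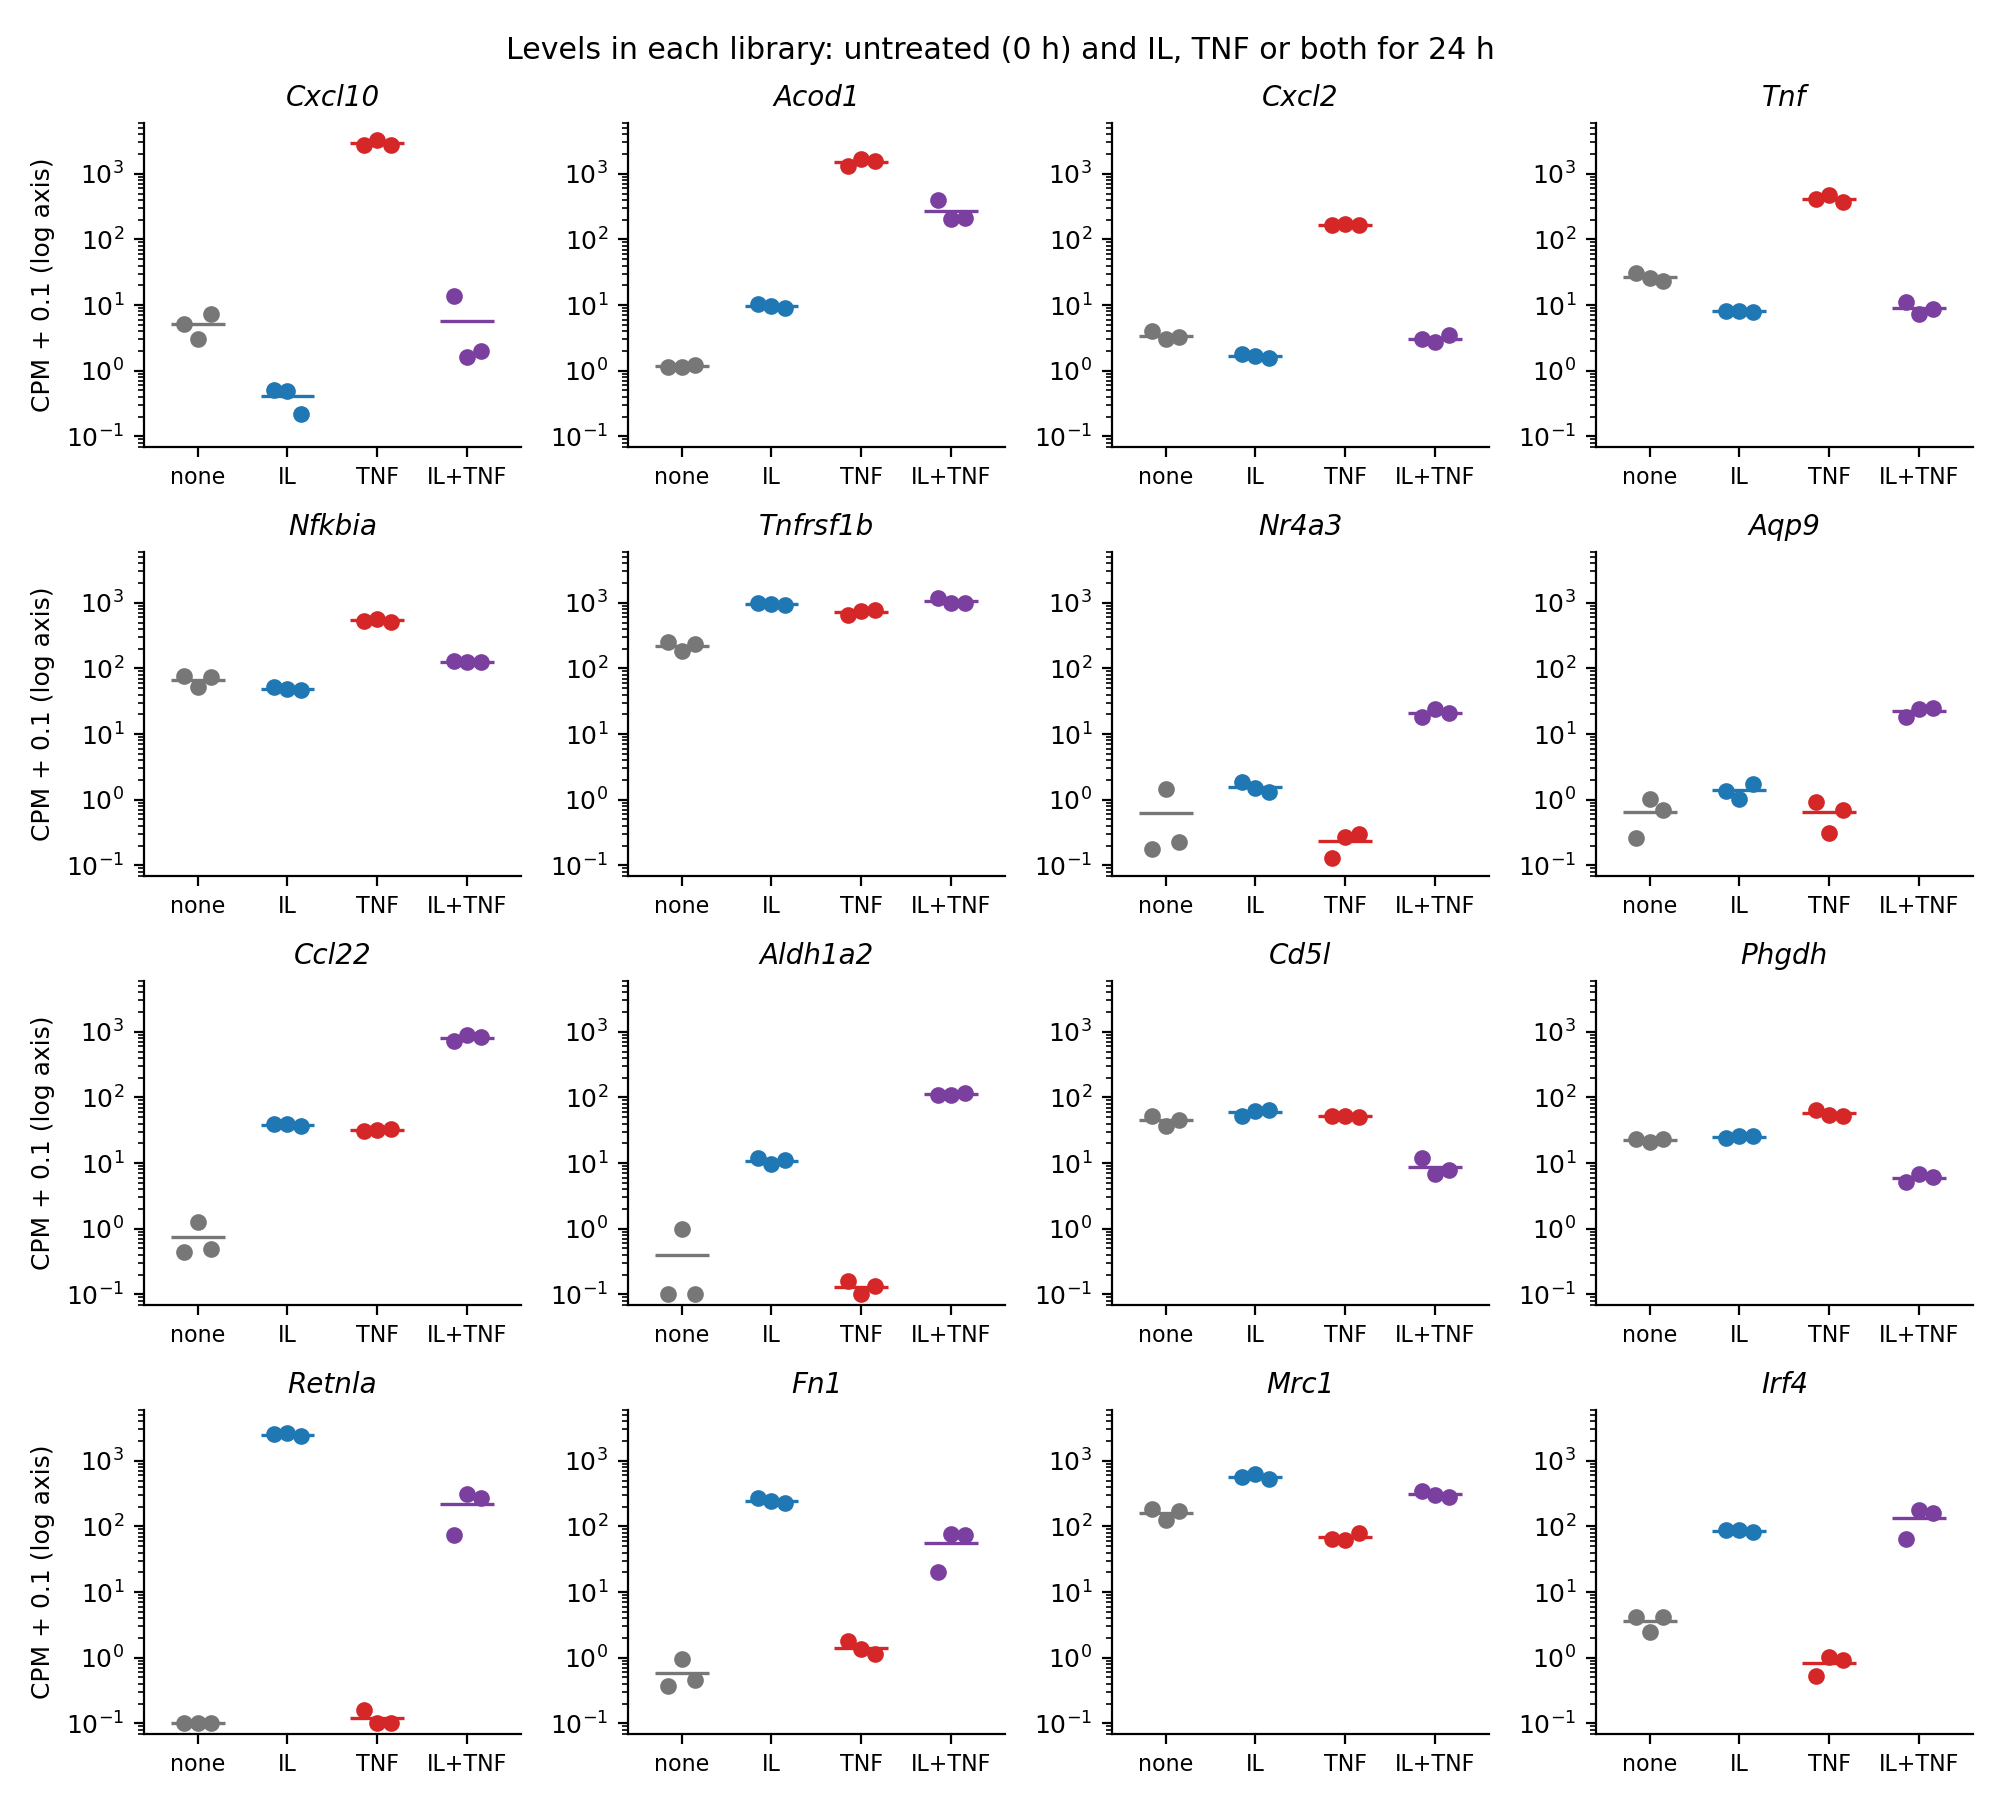
Level of 16 genes in the 4 groups, as CPM + 0.1 on a log axis. Dots are the 3 libraries of a group and the line marks their mean. Cxcl10, Acod1, Cxcl2 and Tnf peak in TNF_24h, whereas Nr4a3, Aqp9, Ccl22 and Aldh1a2 peak in IL_TNF_24h and Cd5l and Phgdh are lowest there.

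Most interferon-stimulated genes rose with TNF in both settings. TNF alone raised 29 of 30 such genes (20.9% of all genes) and TNF with IL raised 28 (6.03%). Of the 30, 27 were placed between the single treatments with TNF_24h higher, a placement held by 2.59% of all genes tested. The interaction was lower in 16 (12.5% of all genes) and higher in none (11.6%), with a median of -1.74. The result depended on IL_TNF_24h_1, in which 27 of the 30 genes were at least 2 times as high as in both other libraries of the group. Without it and Ctrl_0h_2, 28 were lower, with a median of -2.58. Rsad2, the antiviral enzyme viperin, was at 11.2, 9.67 and 14.7 CPM in Ctrl_0h, at 4.28, 6.61 and 5.14 in IL_24h, at 915, 1277 and 1273 in TNF_24h and at 94.9, 9.63 and 11.3 in IL_TNF_24h. Its interaction was -3.75 (SE 0.801, adjusted p = 0.00203) with all libraries and -5.57 (adjusted p = 2.52e-09) without the 2.

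Ifit3 and Ifit2, which encode antiviral RNA-binding proteins, and Isg15, a ubiquitin-like modifier, show the same spread. Ifit3 was at 49.2, 31.4 and 52.1 CPM in Ctrl_0h, at 3.56, 2.84 and 3.1 in IL_24h, at 1495, 1668 and 1306 in TNF_24h and at 115, 9.07 and 7.55 in IL_TNF_24h. Its TNF_24h libraries were highest, and IL_TNF_24h_1 stood well above the other libraries of that group. The interaction was -1.28 (SE 0.884, adjusted p = 0.311) with all libraries and -3.56 (adjusted p = 1.58e-09) without the 2. For Ifit2 the same values were -2.19 (SE 0.931, adjusted p = 0.0953) and -4.47 (adjusted p = 3.40e-08). Isg15 gave -1.21 (SE 0.738, adjusted p = 0.247) and -3.0 (adjusted p = 1.60e-07). Irf1, a transcription factor induced by NF-kB and by interferon, did not pass for TNF on top of IL, at 0.69 (SE 0.227, adjusted p = 0.0571), and had an interaction of -2.96 (SE 0.326, adjusted p = 2.47e-06). Irf7, the regulator of late type I interferon, was not called with all libraries (0.45) and was lower without the 2 (-1.0). For Stat2, a transcription factor of the interferon response, the interaction was -2.04 (SE 0.355).

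**Figure D3:**
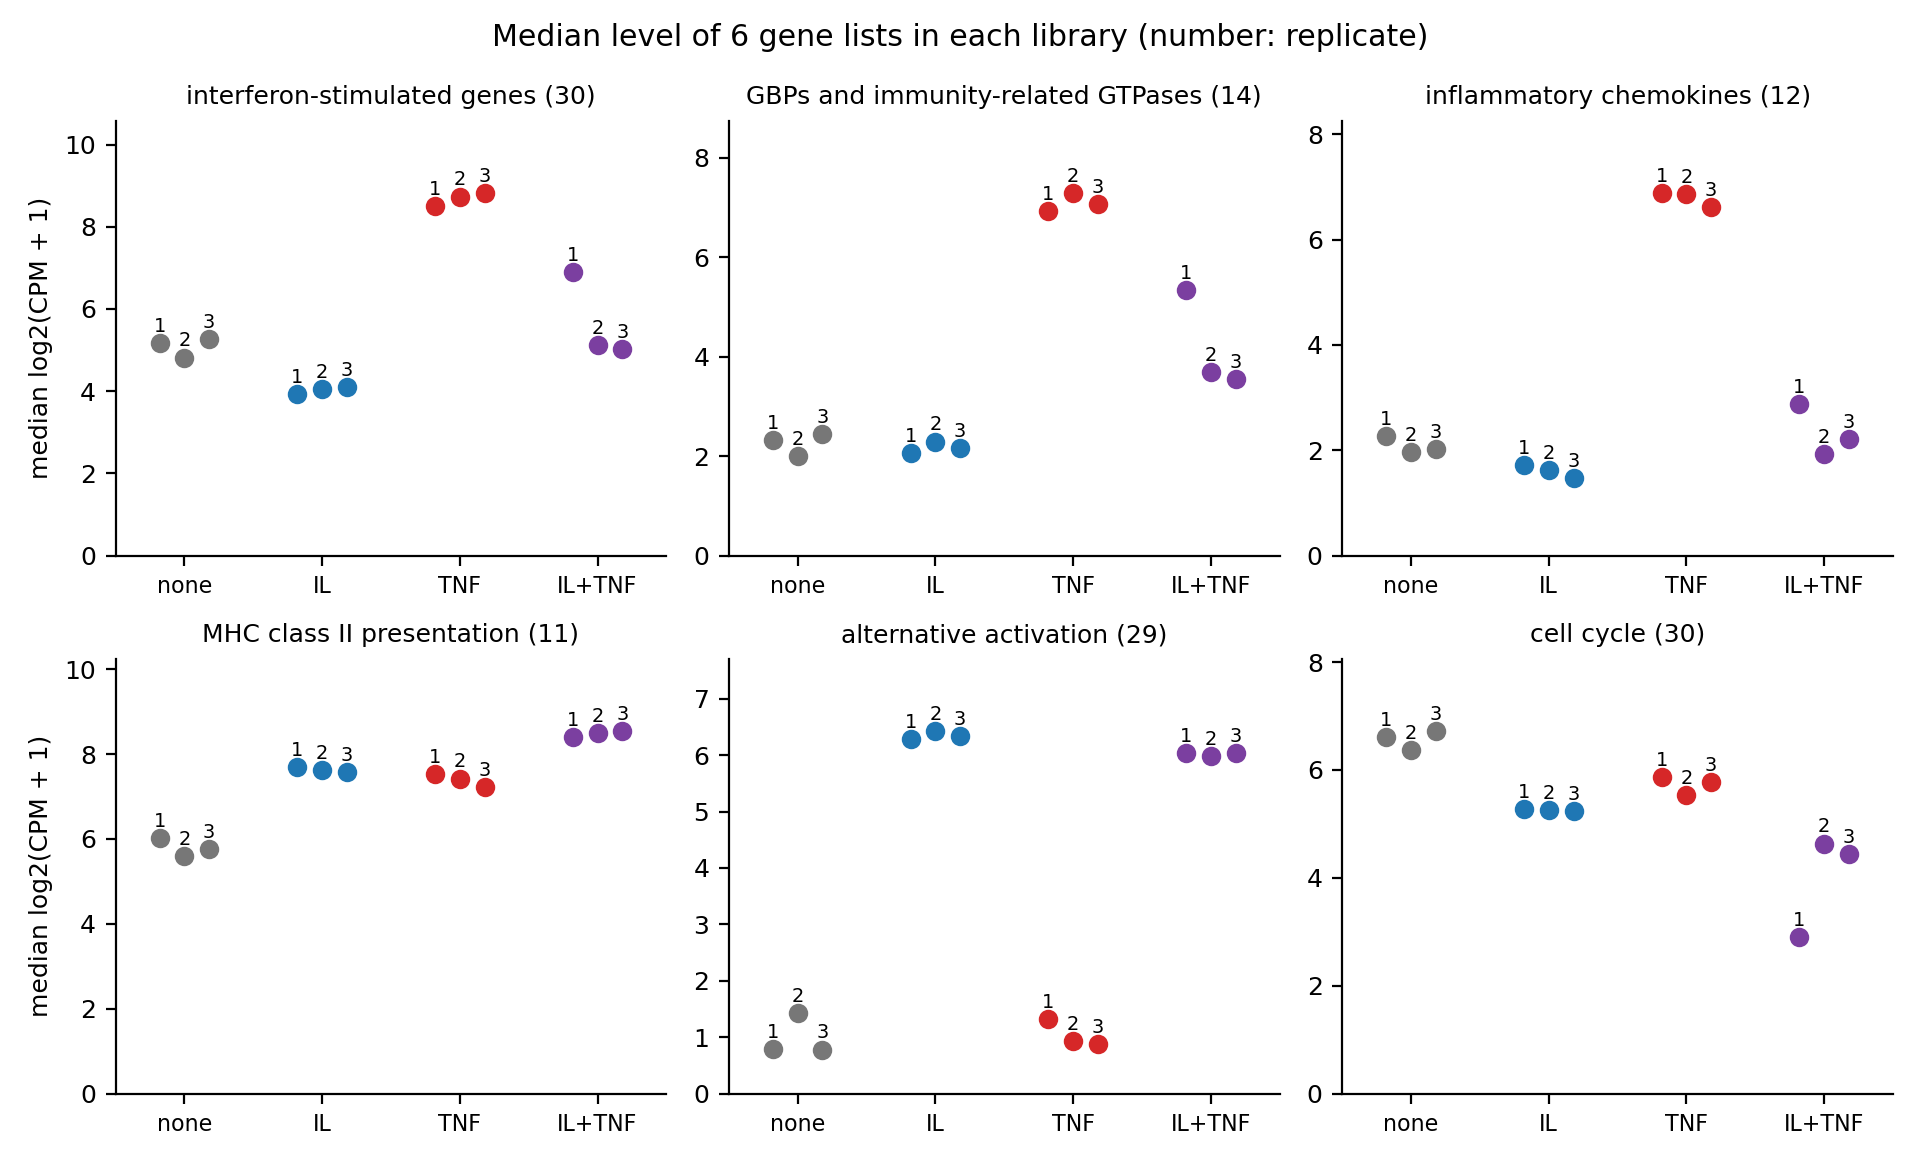
Median level of the members of 6 gene lists in each of the 12 libraries, as log2(CPM + 1), with the replicate number beside each point. In IL_TNF_24h, library 1 stands apart from libraries 2 and 3, above them for the interferon-stimulated genes and the guanylate-binding proteins and below them for the cell cycle genes.

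Guanylate-binding proteins and immunity-related GTPases, which act against intracellular microbes, were lower for the interaction in 9 of 14 genes and higher in none (11 lower without the 2 libraries). Of all genes tested 12.5% were lower and 11.6% higher. TNF alone raised all 14 (20.9% of all genes), and TNF with IL raised 13 (6.03%). In IL_TNF_24h_1, 11 of the 14 were at least 2 times as high as in both other libraries. Gbp2 was an exception to that spread, at 8.18, 4.43 and 6.53 CPM in Ctrl_0h, at 52.8, 55.9 and 49.1 in IL_24h, at 749, 979 and 923 in TNF_24h and at 698, 537 and 519 in IL_TNF_24h. IL_TNF_24h lay below TNF_24h and above IL_24h in every library, and IL_24h above Ctrl_0h. The interaction of Gbp2 was -3.63 (SE 0.262, adjusted p = 2.40e-08) with all libraries and -3.64 (adjusted p = 1.74e-09) without the 2. Irgm1 had an interaction of -2.2 (SE 0.381) and Igtp one of -2.89 (SE 0.445). The near-identical pair Tgtp1 and Tgtp2 was lower too, but counting may divide reads between such copies, so their separate values are uncertain. Olfr56 is annotated as an olfactory receptor gene at chr11:49134173-49135387 (GRCm38.p6), near Tgtp1, Tgtp2 and Ifi47 of this list. It had a similar pattern, with means of 0.324 ± 0.172, 0.261 ± 0.124, 34.8 ± 3.73 and 1.3 ± 0.95 CPM and an interaction of -4.49 (SE 0.747, adjusted p = 2.06e-04). Strandedness and the handling of reads with several matches are unknown for these counts, so its value is uncertain, and a share of neighbouring genes in it was not tested.

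Genes of antigen presentation are described by class. Of 11 genes of MHC class II presentation, 6 had a lower interaction (12.5% of all genes) and none a higher one (11.6%). Yet 6 were placed above both single treatments, as were 1.94% of all genes. H2-Aa, the alpha chain of I-A, was at 117, 73.1 and 92.1 CPM in Ctrl_0h, at 768, 757 and 762 in IL_24h, at 479, 544 and 446 in TNF_24h and at 2177, 2067 and 1942 in IL_TNF_24h. Each treatment alone lay above the controls, and all libraries of IL_TNF_24h lay above both. TNF changed it by 2.38 (SE 0.157, adjusted p = 4.32e-10) alone and by 1.43 (SE 0.152, adjusted p = 1.62e-06) with IL, an interaction of -0.94 (SE 0.212, adjusted p = 0.00308). Ciita, the master regulator of class II genes, had means of 13.2 ± 3.59, 198 ± 8.95, 45.6 ± 10.9 and 355 ± 17.9 CPM and an interaction of -0.95 (SE 0.26, adjusted p = 0.0123). The invariant chain Cd74 gave 942 ± 71, 3992 ± 78, 2911 ± 589 and 7729.8 ± 599 CPM with an interaction of -0.67 (SE 0.21), a call lost in 6 of the 12 fits that leave out 1 library (adjusted p up to 0.0712). H2-DMa, which loads peptides, had the lowest interaction of the list, -1.63 (SE 0.306, adjusted p = 6.49e-04).

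Of 15 genes of MHC class I presentation none was placed above both, and 10 were placed between with TNF_24h higher (2.59% of all genes). The interaction was lower in 7 (12.5% of all genes) and higher in none (11.6%), with 10 lower without the 2 libraries. Nlrc5, the regulator of class I genes, was at 21, 18 and 21.8 CPM in Ctrl_0h, at 55.8, 54.1 and 54.4 in IL_24h, at 178, 248 and 309 in TNF_24h and at 159, 99.2 and 89.3 in IL_TNF_24h. TNF_24h was highest, IL_TNF_24h second and the controls lowest. Its interaction was -2.52 (SE 0.278, adjusted p = 2.55e-06). The peptide transporter Tap1 and the immunoproteasome subunit Psmb10 had interactions of -1.66 (SE 0.328) and -1.73 (SE 0.332). The classical genes H2-K1 and H2-D1 were not called, at -0.35 and -0.33, and as members of a family of near-identical genes their levels are uncertain.

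Among the genes of alternative activation both directions occurred. Of 29, 4 had a higher and 7 a lower interaction, against 11.6% and 12.5% of all genes, so the higher share was near that of all genes. The median was -0.02 on the log2(CPM + 1) scale. IL alone raised 23 of them relative to Ctrl_0h and IL with TNF raised 22 relative to TNF_24h; both of these differences cross the sets of libraries, and 31.7% and 29.2% of all genes tested rose in them. Of the 29, 7 were placed between with IL_24h higher (1.73% of all genes), 4 above (1.94%), and 3 between with TNF_24h higher (2.59%). The 4 with a higher interaction were Irf4, Batf3, Mgl2 and Clec10a, and the 4 placed above were Clec7a, Slc7a2, Pdcd1lg2 and Egr2. In 7 members at least 1 group had 3 counts or fewer.

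Arg1, the arginase of alternatively activated macrophages, was at 0.107, 0 and 0 CPM in Ctrl_0h, at 47.8, 57.6 and 60.1 in IL_24h, at 0.0608, 0.035 and 0.0331 in TNF_24h and at 22.7, 40.3 and 48.3 in IL_TNF_24h. It was high in both groups with IL, whose libraries overlapped. The change of Arg1 with TNF on top of IL was -0.57 (SE 0.223, adjusted p = 0.122) and did not pass. Retnla, which encodes the secreted protein RELM-alpha, was at 0, 0 and 0 CPM in Ctrl_0h, at 2514, 2664 and 2342 in IL_24h, at 0.0608, 0 and 0 in TNF_24h and at 72.9, 315 and 273 in IL_TNF_24h. IL_TNF_24h lay below IL_24h in every library, and the groups without IL had 3 counts or fewer. The change of Retnla with TNF on top of IL was -3.51 (SE 0.412, adjusted p = 2.58e-05). Chil3, a chitinase-like protein gene with near-identical copies and so of uncertain level, was at 0, 0.27 and 0 CPM in Ctrl_0h, at 250.1, 247 and 238 in IL_24h, at 0, 0 and 0 in TNF_24h and at 97.2, 168 and 166 in IL_TNF_24h. IL_TNF_24h lay below IL_24h in every library, and outside these groups at most 1 library held a count. The change of Chil3 with TNF on top of IL was -0.77 (SE 0.255, adjusted p = 0.0631) and did not pass.

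Mrc1, the mannose receptor, was at 185, 125 and 173 CPM in Ctrl_0h, at 569.8, 619 and 529 in IL_24h, at 63.5, 61.3 and 78.3 in TNF_24h and at 344, 297 and 282 in IL_TNF_24h. TNF_24h was lowest and IL_24h highest, without overlap. TNF changed it by -1.25 (SE 0.153, adjusted p = 1.67e-06) alone and by -0.90 (SE 0.151, adjusted p = 3.45e-04) with IL, and the interaction of Mrc1 was 0.35 (SE 0.212, adjusted p = 0.24) and not called. Fn1, fibronectin, had means of 0.49 ± 0.311, 247 ± 20.5, 1.33 ± 0.343 and 56.4 ± 31.6 CPM and a lower interaction, -3.61 (SE 0.737, adjusted p = 0.00141). The transcription factor Irf4, which promotes alternative activation, was at 4.09, 2.4 and 4.14 CPM in Ctrl_0h, at 89.3, 87.3 and 82.7 in IL_24h, at 0.426, 0.91 and 0.828 in TNF_24h and at 64.9, 177 and 161 in IL_TNF_24h. It was high in both groups with IL, and TNF_24h was lowest. TNF changed Irf4 by -2.31 (SE 0.419, adjusted p = 1.70e-04) alone, and the change with IL did not pass, at 0.64 (SE 0.296, adjusted p = 0.218), an interaction of 2.95 (SE 0.515, adjusted p = 3.37e-04). Batf3, a transcription factor that also acts with Irf4 in dendritic cells, and the lectin Mgl2 were higher as well, at 2.58 (SE 0.408) and 1.94 (SE 0.614). On log2(mean CPM + 1) the value of Batf3 was 2.04 and that of Mgl2 was 0.09, so the size for Mgl2 rested on the scale. Flt1, a receptor of VEGF, was lower, at -1.92 (SE 0.677) and -4.13 (adjusted p = 2.54e-10) without the 2 libraries. The call of Mgl2 was lost in 6 and that of Flt1 in 9 of the 12 fits that leave out 1 library, with adjusted p values up to 0.103 and 0.0933.

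Among 7 chemokines of type 2 responses, 4 (Ccl22, Ccl17, Ccl24 and Ccl8) were placed above both single treatments (1.94% of all genes). Without the 2 libraries Ccl8 lost that placement. The interaction was higher in 1 and lower in 4 (11.6% and 12.5% of all genes), and without the 2 libraries higher in none and lower in 5. Ccl22, a ligand of CCR4, was at 0.347, 1.18 and 0.392 CPM in Ctrl_0h, at 39.6, 38.9 and 37.1 in IL_24h, at 31, 32.1 and 33.5 in TNF_24h and at 729, 889 and 821 in IL_TNF_24h. Each treatment alone lay above the controls and IL_TNF_24h lay far above both. The sum of the separate increases over Ctrl_0h predicted 70.1 CPM, and the mean in IL_TNF_24h was 813 CPM, 11.6 times that sum. On the fitted log2 scale, where the separate factors multiply, the interaction was lower, -1.28 (SE 0.307, adjusted p = 0.00491), and -2.04 (adjusted p = 2.07e-07) without the 2 libraries. On log2(mean CPM + 1) it was 0.025, with controls at 0.347 to 1.18 CPM. The sign for Ccl22 thus rested on the scale. Ccl17, the other ligand of CCR4, was at 0, 0.0338 and 0.0326 CPM in Ctrl_0h, at 6.17, 6.49 and 6.46 in IL_24h, at 0.0304, 0.070 and 0.132 in TNF_24h and at 37, 85 and 81.8 in IL_TNF_24h. The change of Ccl17 with TNF on top of IL was 3.41 (SE 0.296, adjusted p = 3.21e-07), and the controls held too few counts for a fitted interaction. Ccl24, a ligand of CCR3, had means of 0.573 ± 0.507, 6.34 ± 1.3, 2.05 ± 0.394 and 59.1 ± 3.07 CPM. Its interaction was 1.35 (SE 0.48, adjusted p = 0.0472) with all libraries and 0.30 (adjusted p = 0.694) without the 2. It missed the threshold when Ctrl_0h_2 alone was left out (adjusted p = 0.544). The same held without TNF_24h_2, TNF_24h_3 or any single library of IL_24h or IL_TNF_24h (adjusted p of 0.0547 to 0.110).

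In all, 302 genes (1.94%) were placed above both single treatments, 395 without the 2 libraries, and 275 of the 302 were placed so both ways. The libraries of IL_TNF_24h did not overlap and lay above for 1082 genes (6.94%). Among the 302, the interaction was higher in 125 and lower in 40, against 11.6% and 12.5% of all genes. Placement and interaction use the same treated libraries, so such counts follow in part from the definitions. Genes were named here only if placed so both ways and if their IL_TNF_24h libraries did not overlap those of either single treatment. The lack of overlap with IL_24h and TNF_24h thus follows from the choice. The 8 such genes with the widest gap were Apol7c, Ccl22, P2rx5, Aqp9, Aldh1a2, Ccl17, Ccr7 and Nr4a3. Aqp9, a channel for water and glycerol, was at 0.16, 0.913 and 0.587 CPM in Ctrl_0h, at 1.27, 0.937 and 1.65 in IL_24h, at 0.821, 0.21 and 0.596 in TNF_24h and at 18.2, 23.8 and 24.5 in IL_TNF_24h. Neither single treatment came near the combined one, and no library overlapped. The interaction of Aqp9 was 4.07 (SE 0.618, adjusted p = 8.14e-05) with all libraries and 3.53 (adjusted p = 6.89e-04) without the 2. Nr4a3, an orphan nuclear receptor of the immediate early kind, was at 0.0802, 1.35 and 0.131 CPM in Ctrl_0h, at 1.75, 1.38 and 1.2 in IL_24h, at 0.0304, 0.175 and 0.199 in TNF_24h and at 18.4, 23.7 and 20.9 in IL_TNF_24h. It was high in IL_TNF_24h alone. Its interaction was 5.76 (SE 1.02, adjusted p = 3.79e-04) and, without the 2 libraries, 3.54 (adjusted p = 0.0233).

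Apol7c, a gene of the apolipoprotein L family, was at 0.0534, 0.203 and 0 CPM in Ctrl_0h, at 11.6, 12.7 and 9.59 in IL_24h, at 7.39, 17.2 and 10.4 in TNF_24h and at 558, 262 and 258 in IL_TNF_24h. Each single treatment was followed by a level above the controls and the combination by one far above both. The change with TNF on top of IL was 4.99 (SE 0.333, adjusted p = 4.52e-09). On the fitted log2 scale the interaction of Apol7c was lower, -2.1 (SE 0.755, adjusted p = 0.0499), a call lost in 9 of 11 fits that leave out 1 library. On log2(mean CPM + 1) it was positive, with every control at 0.203 CPM or less, so its sign rested on the scale. Without Ctrl_0h_2 the controls held 3 counts or fewer. Aldh1a2, the retinal dehydrogenase that makes retinoic acid, was at 0, 0.879 and 0 CPM in Ctrl_0h, at 12, 9.47 and 10.9 in IL_24h, at 0.0608, 0 and 0.0331 in TNF_24h and at 111, 109 and 117 in IL_TNF_24h. The groups with IL were high, and IL_TNF_24h was highest in every library. The change of Aldh1a2 with TNF on top of IL was 3.37 (SE 0.42, adjusted p = 1.23e-05). P2rx5, a receptor channel for ATP, had means of 0.58 ± 0.874, 3.17 ± 0.367, 1.6 ± 0.278 and 55.8 ± 13.1 CPM and rose on top of IL by 4.14 (SE 0.483, adjusted p = 5.45e-06). Its interaction of 2.6 (SE 0.76, adjusted p = 0.0179) became -0.13 (adjusted p = 0.884) without the 2 libraries.

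Ccr7, the receptor that directs dendritic cells to lymph nodes, was at 0, 0.575 and 0 CPM in Ctrl_0h, at 0.487, 0.539 and 0.64 in IL_24h, at 0.486, 0.070 and 0.331 in TNF_24h and at 18.4, 9.28 and 12.7 in IL_TNF_24h. It was high in IL_TNF_24h alone, without overlap, and rose on top of IL by 4.59 (SE 0.693, adjusted p = 1.12e-04). Its interaction was 3.87 (SE 1.1, adjusted p = 0.0158) with all libraries. Ctrl_0h_2 was the only control with a count, so the interaction rested on it and none is given without it. Ccr7 is also on a list of 5 dendritic cell markers, whose summed level was 23.5 to 28.4 CPM in IL_TNF_24h, 2.36 to 3.88 in IL_24h, 0.993 to 2.28 in TNF_24h and 0.359 to 10.6 in Ctrl_0h. Most of the sum came from Ccr7 and Zbtb46 (means of 13.4 and 12 CPM in IL_TNF_24h), while Cd209a had 0 counts there and Flt3 and Xcr1 averaged 0.0156 and 0.203 CPM. The 10 neutrophil markers summed to 2.73 to 6.02 CPM in IL_TNF_24h and to 0.623 to 0.797 in IL_24h, mostly from Cxcr2 at a mean of 4.19 CPM, with Mpo, Elane, Ly6g and Retnlg at 0 counts. The part of such cells in the genes placed above was not tested. The lists of eosinophil, mast cell and basophil, fibroblast, T and NK cell, B cell and erythroid markers stayed below 10 CPM in sum in each of the 12 libraries.

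Below both single treatments lay 314 genes (2.02%), 375 without the 2 libraries, with 250 of the 314 placed so both ways. The number was 207 without IL_24h_3 and 208 without IL_24h_2. The libraries did not overlap and lay below for 957 genes (6.14%). The interaction was lower in 89 of the 314 (12.5% of all genes) and higher in 32 (11.6%), which again follows in part from the shared libraries. Among genes placed so both ways and without overlap, the widest gaps were those of Cd5l, Qpct, Hpgd, Phgdh, Igfbp4, Id3, Pcp4l1 and Ccnb2. Cd5l, a secreted inhibitor of apoptosis made by macrophages, was at 52, 37.1 and 45 CPM in Ctrl_0h, at 52.1, 61.7 and 64.3 in IL_24h, at 52.2, 52.9 and 50.7 in TNF_24h and at 11.7, 6.66 and 7.69 in IL_TNF_24h. The controls and both single treatments lay between 37.1 and 64.3 CPM, and every library of IL_TNF_24h was lower. TNF on top of IL changed it by -2.78 (SE 0.171, adjusted p = 1.31e-09), against 0.22 (SE 0.158, adjusted p = 0.279) without IL, an interaction of -2.99 (SE 0.23, adjusted p = 4.56e-08). Phgdh, the first enzyme of serine synthesis, was at 23.1, 20.7 and 22.9 CPM in Ctrl_0h, at 23.7, 25.4 and 26.1 in IL_24h, at 65.2, 53.6 and 52.8 in TNF_24h and at 5.12, 6.68 and 5.97 in IL_TNF_24h. TNF_24h was highest and IL_TNF_24h lowest. TNF raised Phgdh by 1.36 (SE 0.136, adjusted p = 1.19e-07) alone and changed it by -2.08 (SE 0.142, adjusted p = 5.08e-09) with IL, and the interaction was -3.44 (SE 0.196, adjusted p = 1.06e-09).

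Qpct, glutaminyl cyclase, had means of 45.8 ± 8.96, 48.4 ± 4.19, 70.6 ± 2.42 and 9.49 ± 3.12 CPM and an interaction of -2.97 (SE 0.256, adjusted p = 1.57e-07). Hpgd, Id3 and Igfbp4 were below both without a called interaction, and each fell with either treatment alone. Hpgd, which degrades prostaglandins, was at 137, 116 and 139.6 CPM in Ctrl_0h, at 3.66, 3.98 and 3.43 in IL_24h, at 11.2, 11.3 and 9.97 in TNF_24h and at 0.169, 0.14 and 0.0967 in IL_TNF_24h. The order was controls, TNF_24h, IL_24h and IL_TNF_24h, without overlap. Its interaction of -1.16 (SE 0.421, adjusted p = 0.0521) did not pass. Id3, an inhibitor of helix-loop-helix factors, had 67.4 ± 5.54, 4.05 ± 0.0947, 12.8 ± 3.9 and 0.482 ± 0.175 CPM and an interaction of -0.64 (SE 0.314, adjusted p = 0.146). Igfbp4, which binds insulin-like growth factors, had 842 ± 89.7, 65.9 ± 5.95, 285 ± 44.5 and 17.8 ± 5.33 CPM and one of -0.33 (SE 0.266, adjusted p = 0.40). For Pcp4l1 the interaction was slightly higher, 0.58 (SE 0.166, adjusted p = 0.0164), a call lost in 4 of the 12 fits that leave out 1 library (without IL_24h_1, IL_24h_2, TNF_24h_3 or IL_TNF_24h_3, adjusted p up to 0.0754).

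Between the single treatments lay 672 genes (4.31%): 403 (2.59%) with TNF_24h higher and 269 (1.73%) with IL_24h higher. Without the 2 libraries the numbers were 380 and 288, and 312 and 212 of the genes were placed so both ways. Without IL_24h_1 or IL_24h_2 the genes with IL_24h higher numbered 163 and 165. The libraries of IL_TNF_24h did not overlap and lay between with TNF_24h higher for 907 genes (5.82%) and with IL_24h higher for 1100 (7.06%). The interaction was lower in 231 of the 403 and higher in 19. Of the 269, 82 were higher and 30 lower. Of all genes 12.5% were lower and 11.6% higher, and here too the counts follow in part from the shared libraries. With TNF_24h higher, the widest gaps were all of interferon-stimulated genes, Ifit3, Ifit2, Ifit1, Oasl1 and Isg15. These gaps were smaller without the 2 libraries: the fitted difference from IL_24h went from 3.79 to 1.39 for Ifit3, from 4.1 to 1.65 for Ifit2 and from 3.38 to 1.58 for Isg15. All 5 genes kept their placement, but only genes that did so were named here, in either direction. With IL_24h higher the widest gaps were those of Retnla, Ear2, Fn1, Eps8 and Il1rl1. Eps8, an adaptor that organizes actin, was at 26.5, 17.6 and 26.5 CPM in Ctrl_0h, at 39.6, 43 and 41.5 in IL_24h, at 1.28, 1.12 and 0.861 in TNF_24h and at 6.08, 13.1 and 12.3 in IL_TNF_24h. IL_24h was highest and TNF_24h lowest, with IL_TNF_24h between them without overlap. TNF changed Eps8 by -4.43 (SE 0.273, adjusted p = 1.57e-10) alone and by -1.98 (SE 0.227, adjusted p = 4.56e-06) with IL, an interaction of 2.46 (SE 0.342, adjusted p = 3.39e-05). Il1rl1, the receptor of interleukin 33, had means of 2.22 ± 0.0462, 17.4 ± 0.543, 0.544 ± 0.087 and 4.43 ± 3.22 CPM and an interaction of 0.05 (SE 0.825, adjusted p = 0.977).

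**Figure D4:**
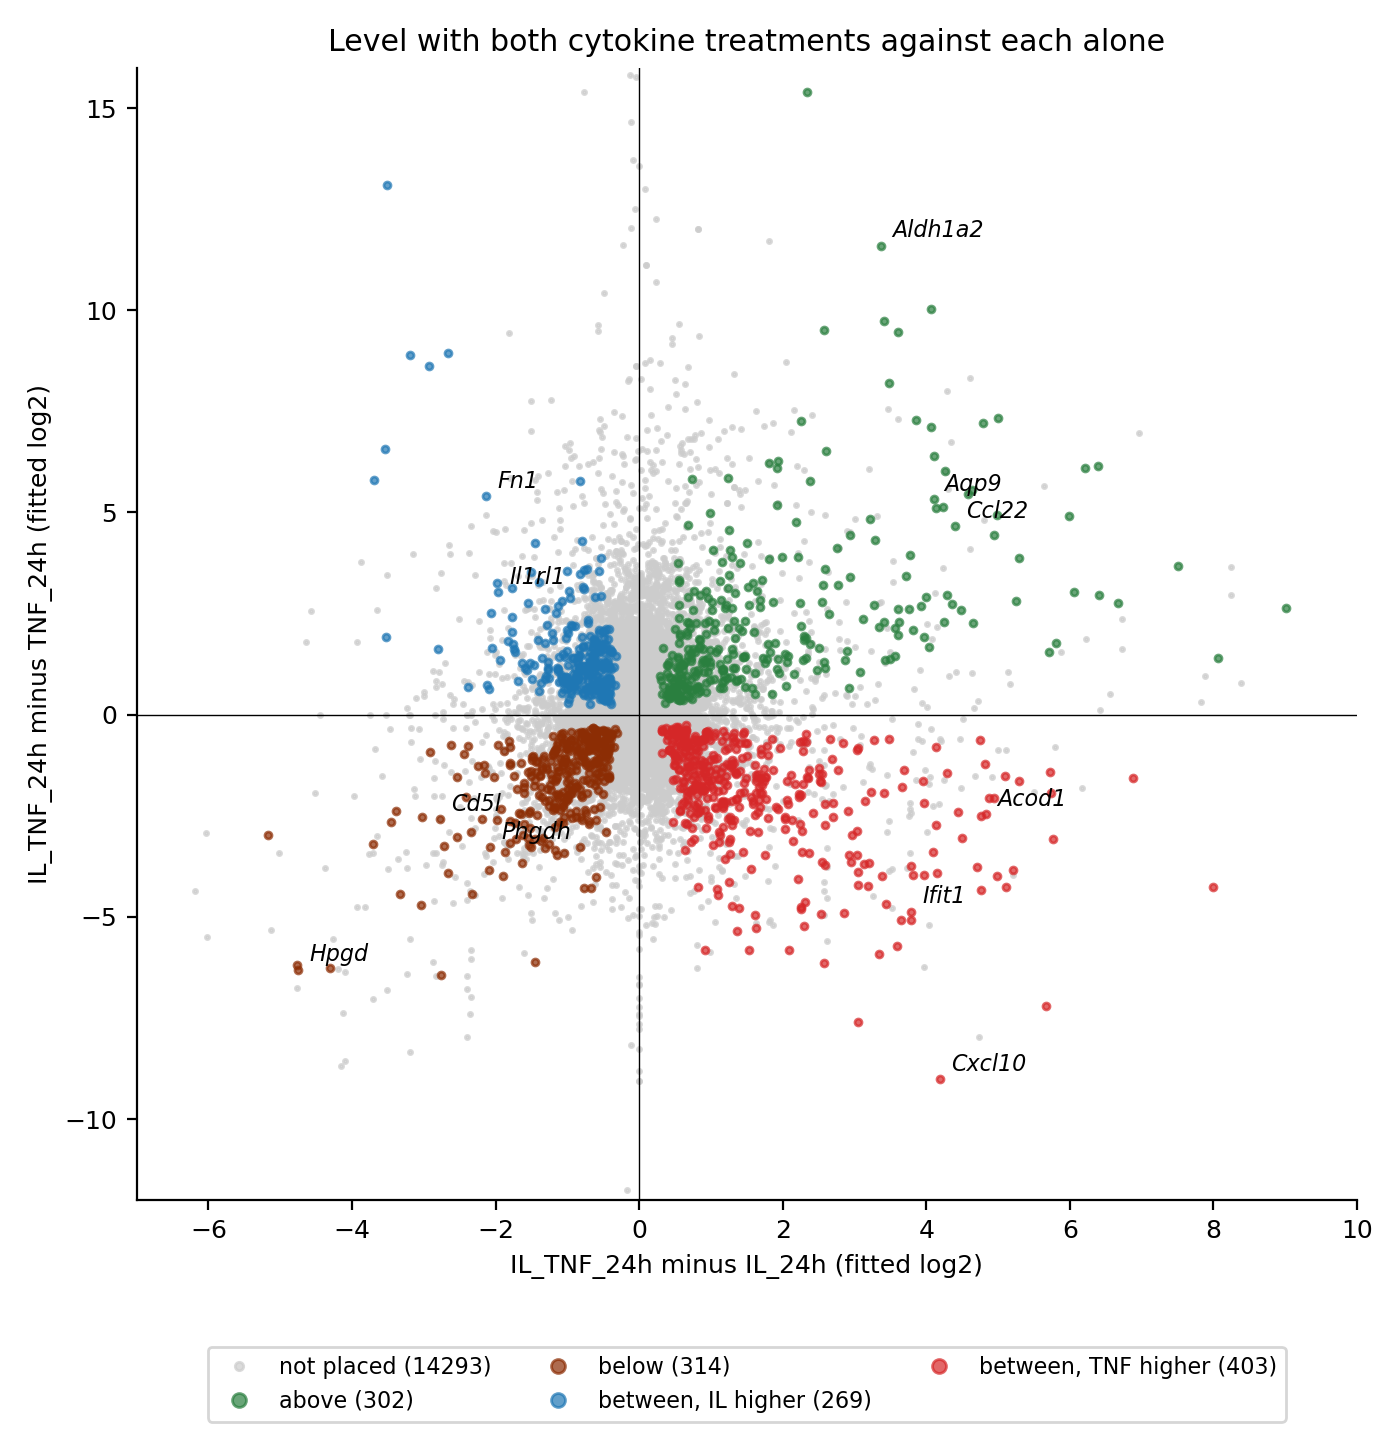
The level in IL_TNF_24h relative to IL_24h (x axis) and relative to TNF_24h (y axis), as fitted log2 differences, with one dot per gene tested. Colours mark the genes placed above both (302), below both (314), between with IL_24h higher (269) and between with TNF_24h higher (403); the cloud is narrow along the x axis and wide along the y axis.

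The position between the single treatments was described for genes that differ by at least 2 on the log2 scale between them, with 0 the level of IL_24h and 1 that of TNF_24h. The 780 such genes that were higher in IL_24h had a median position of 0.16, with quartiles of -0.02 and 0.37, and 81.7% lay nearer to IL_24h. The 680 that were higher in TNF_24h had a median of 0.25, with quartiles of 0.08 and 0.44, and 80.0% lay nearer to IL_24h. The median of the second group was 0.146 without IL_TNF_24h_1. IL_24h and TNF_24h differed widely to begin with, IL_24h being called higher in 30.1% and lower in 27.9% of the genes tested. IL_TNF_24h shares the set of sex-linked gene expression with IL_24h and not with TNF_24h, and the part of that in the position was not tested. Of 460 X-linked genes tested, 41 (8.91%) had a higher and 63 (13.7%) a lower interaction, against 11.6% and 12.5% of all genes. None of 4 Y-linked genes was called. That says nothing of the sets, since a gene with 0 counts in Ctrl_0h and TNF_24h, as Ddx3y, has no TNF effect to compare.

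The highest interactions had several forms. By the log2(CPM + 1) scale the 10 highest, among genes called with and without the 2 libraries, were Sox12, Sema6c, Nr4a3, Aqp9, Cacnb3, Spint1, St14, Cbx2, Ung and Misp3. Sox12, Sema6c and Spint1 were highest among the controls in Ctrl_0h_2, in which Sox12 was at 42.3 CPM against 1.92 and 1.34 in the other controls, Sema6c at 45.6 against 4.49 and 5.45, and Spint1 at 13.9 against 2.35 and 1.89. With all libraries the interactions of Sox12 and Sema6c were 7.47 (SE 1.63) and 5.33 (SE 1.09), and without the 2 they were 4.59 (adjusted p = 0.00211) and 3.4 (adjusted p = 0.00318). Passing without the 2 was a condition for being named. On log2(mean CPM + 1) they went from 3.74 to 1.35 and from 3.64 to 1.95, and TNF_24h held 6 counts of Sox12. Sox12, Sema6c and Misp3 reached a mean of 10 CPM only through Ctrl_0h_2. Without it their control means were 1.63, 4.97 and 9.49 CPM. Cacnb3, a subunit of calcium channels, was at 0.882, 4.73 and 1.47 CPM in Ctrl_0h, at 0.798, 0.75 and 1.07 in IL_24h, at 2.58, 1.58 and 2.48 in TNF_24h and at 19.9, 17.1 and 14.5 in IL_TNF_24h. IL_TNF_24h was highest, with an interaction of 4.37 (SE 0.631, adjusted p = 5.06e-05). St14, the membrane protease matriptase, was at 9.41, 14.2 and 10.9 CPM in Ctrl_0h, at 3.91, 3.94 and 4.72 in IL_24h, at 6.2, 5.99 and 3.74 in TNF_24h and at 25.8, 19 and 16.8 in IL_TNF_24h. Each single treatment lay below the controls and IL_TNF_24h above them. TNF changed St14 by -1.11 (SE 0.24, adjusted p = 9.24e-04) alone and by 2.29 (SE 0.243, adjusted p = 1.64e-06) with IL, for an interaction of 3.4 (SE 0.341, adjusted p = 8.87e-07). Spint1, which encodes the inhibitor of matriptase, had means of 6.04 ± 6.78, 3.98 ± 0.277, 0.69 ± 0.204 and 10.9 ± 1.37 CPM and an interaction of 4.57 (SE 0.731, adjusted p = 1.41e-04), which was 3.08 (adjusted p = 2.34e-06) without the 2 libraries.

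Ung and Cbx2 rested on a fall with TNF alone. Ung, uracil DNA glycosylase, was at 19, 20.6 and 21 CPM in Ctrl_0h, at 8.94, 9.23 and 9.7 in IL_24h, at 1.15, 1.09 and 1.22 in TNF_24h and at 3.12, 8.01 and 7.01 in IL_TNF_24h. TNF_24h was lowest, and the libraries of IL_24h and IL_TNF_24h lay between it and the controls. TNF changed Ung by -4.12 (SE 0.303, adjusted p = 1.74e-09) alone, and the change with IL did not pass, at -0.62 (SE 0.258, adjusted p = 0.156). The interaction of Ung was 3.51 (SE 0.389, adjusted p = 2.57e-06). Cbx2, a Polycomb protein, had means of 7.56 ± 4.09, 8.12 ± 1.22, 0.849 ± 0.192 and 14.9 ± 5.53 CPM and an interaction of 4.03 (SE 0.558, adjusted p = 3.11e-05).

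Cell cycle genes went both ways. Of 30, 7 had a higher interaction and 2 a lower one (11.6% and 12.5% of all genes), and without the 2 libraries 12 and 4. The 7 were Ccne1, Ccne2 and E2f1, which act at entry into S phase, the replication helicase genes Mcm2, Mcm6 and Mcm7, and Tyms, which makes thymidylate. The calls of Ccne2, Mcm2 and Mcm7 were lost in 9, 10 and 8 of the 12 fits that leave out 1 library, with adjusted p values up to 0.112, 0.137 and 0.0978. Ccne1 was at 28.8, 32.1 and 32.5 CPM in Ctrl_0h, at 9.66, 9.35 and 9.66 in IL_24h, at 8.6, 4.9 and 5.53 in TNF_24h and at 5.09, 11.5 and 11.9 in IL_TNF_24h. The controls were highest, TNF_24h lay below IL_24h in every library, and IL_TNF_24h overlapped both. TNF changed Ccne1 by -2.29 (SE 0.247, adjusted p = 3.34e-07) alone and changed it by -0.01 (SE 0.236, adjusted p = 0.997) with IL, for an interaction of 2.28 (SE 0.338, adjusted p = 6.44e-05). The 2 with a lower interaction were the mitotic genes Ccnb1 and Tpx2. Ccnb1 had 32 ± 6.63, 25.7 ± 0.283, 40.2 ± 6.34 and 10.9 ± 7.38 CPM and an interaction of -1.56 (SE 0.51, adjusted p = 0.0332), with adjusted p values of 0.0727 without Ctrl_0h_2, 0.0836 without TNF_24h_3 and 0.0517 to 0.0633 without any one library of IL_24h. Tpx2 lost its call in the same 5 fits (up to 0.0777). Of the 30 genes 9 were placed below both single treatments (2.02% of all genes), 13 without the 2 libraries. In IL_TNF_24h_1, 26 of the 30 were at most 0.5 times as high as in both other libraries of the group, and Ccnb2 shows that spread. Ccnb2, which encodes a mitotic cyclin, was at 106, 87.8 and 114 CPM in Ctrl_0h, at 32, 33.4 and 33.1 in IL_24h, at 90.7, 78.7 and 82.4 in TNF_24h and at 1.44, 16 and 14.6 in IL_TNF_24h. IL_TNF_24h was lowest, IL_24h next, and TNF_24h just overlapped the controls.

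Of 9 genes of osteoclasts and cell fusion, 2 had a higher interaction (Acp5 and Itgb3) and 2 a lower one (Dcstamp and Tnfrsf11a), against 11.6% and 12.5% of all genes. Of the 9, 3 were placed above both (1.94% of all genes). The call of Itgb3 was lost in 5 of the 12 fits that leave out 1 library (adjusted p up to 0.0722) and that of Tnfrsf11a in 3 (up to 0.0604). Dcstamp, needed for fusion of macrophages into multinucleated cells, had means of 3.05 ± 0.522, 77.5 ± 3.31, 12.5 ± 0.703 and 173 ± 30.8 CPM and an interaction of -0.88 (SE 0.223, adjusted p = 0.00727). Among 18 genes of cholesterol synthesis and uptake 5 were lower (12.5% of all genes) and none higher (11.6%), with a median of -0.33. Among 11 genes of cholesterol efflux and its regulator LXR, 1 was higher, near the share of all genes, and 3 lower (median -0.27 on the log2(CPM + 1) scale). The 1 was Apoc1, whose TNF_24h libraries held 3 counts or fewer in sum and whose call was lost in 7 of the 12 fits that leave out 1 library. The 3 were Abca1, Abcg1 and Nr1h3, and Abca1 just missed the threshold without TNF_24h_3 (adjusted p = 0.0501). Nr1h3, which encodes LXR-alpha, had means of 39.6 ± 2.18, 54.5 ± 2.89, 266 ± 26.3 and 81.2 ± 35 CPM and an interaction of -2.17 (SE 0.319, adjusted p = 5.87e-05).

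Among 17 macrophage identity genes 2 were higher (11.6% of all genes) and 6 lower (12.5%), so the higher share was near that of all genes. The median was -0.74, and without the 2 libraries 3 were higher and 8 lower. The receptor kinase Axl, which binds dying cells through Gas6, had 24.8 ± 6.25, 58.1 ± 2.72, 178 ± 49.3 and 100.4 ± 7.65 CPM and an interaction of -2.05 (SE 0.252, adjusted p = 8.45e-06). Cebpa, a myeloid transcription factor, was higher at 1.2 (SE 0.403, adjusted p = 0.0374). That call was lost in 9 of the 12 fits that leave out 1 library, including each of the 3 without a library of TNF_24h. Cd14, the LPS co-receptor, was lower at -1.44 (SE 0.185). Of 16 glycolysis genes, 3 were lower and none higher (12.5% and 11.6% of all genes), with a median of 0.11, so the lower share was near that of all genes. The 3 were the glucose transporter Slc2a1 at -1.66 (SE 0.219), the hexokinase Hk2 at -1.23 (SE 0.227), and Pfkfb3, which makes an activator of phosphofructokinase, at -2.02 (SE 0.255). Pfkfb3 had means of 7.8 ± 1.67, 27.8 ± 0.848, 24.5 ± 6.36 and 21.4 ± 4.32 CPM.

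**Figure D5:**
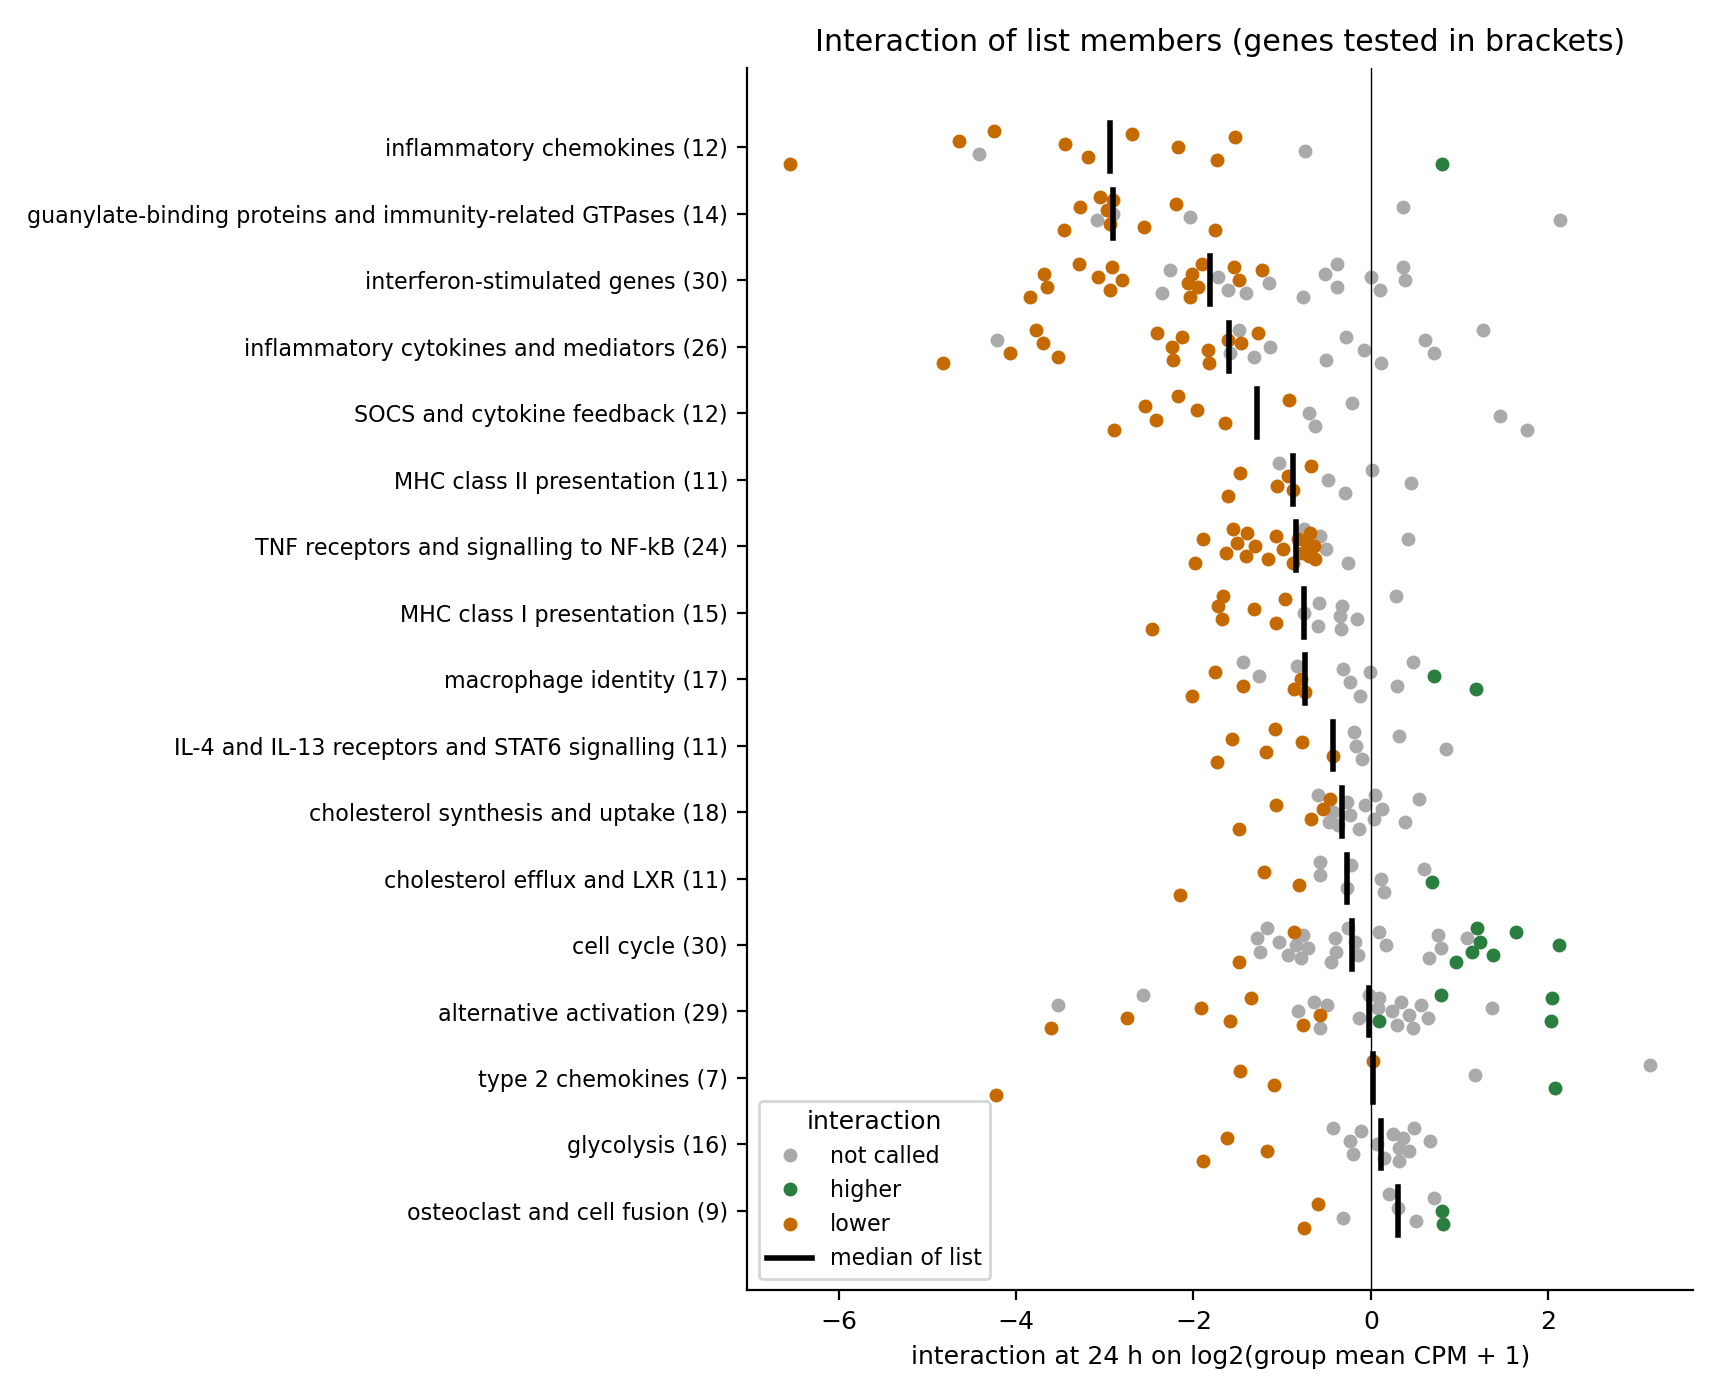
Interaction of each member of 17 gene lists, as the difference of log2(mean CPM + 1), with the median of each list as a line. The lists of inflammatory chemokines, guanylate-binding proteins, interferon-stimulated genes and inflammatory cytokines lie farthest below 0, while alternative activation, glycolysis and osteoclast genes lie around 0.

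Each effect was followed from the comparison without the other treatment to the comparison with it, which share no library. The comparisons with Ctrl_0h also span 24 h of culture, which the others do not. Loss of a cytokine effect and an effect of culture time therefore cannot be told apart in these shares. Of 719 genes that TNF alone raised by at least 2 on the log2 scale, TNF with IL raised 369 (51.3%) and lowered 2, and their median went from 3.03, which the choice of genes fixes, to 1.02. Of 1029 that TNF alone lowered by as much, TNF with IL lowered 119 (11.6%) and raised 11, with medians of -3.24 and -0.37. Of all genes tested, TNF with IL raised 6.03% and lowered 5.08%. Without Ctrl_0h_2 and IL_TNF_24h_1 these shares were 41.4% of 892 and 26.9% of 386. For IL, 874 of the 1114 genes raised by as much without TNF rose with TNF too (78.5%), with medians of 2.97 and 2.15, and 539 of the 1241 lowered ones fell (43.4%), with medians of -2.96 and -1.29. Without the 2 libraries the shares were 74.1% of 1443 and 64.3% of 664. Both IL comparisons cross the sets of libraries, where 31.7% (raised) and 32.6% (lowered) of all genes were called for IL alone and 29.2% and 27.1% for IL with TNF, so that carry-over of IL and the difference between the sets cannot be told apart.

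The interaction at 24 h was also compared with that at 6 h, for which the series holds libraries of the same treatments. The control libraries cancel out of this difference, but culture time does not. TNF alone at 24 h and at 6 h differ in culture time, so its effect and that of TNF cannot be told apart here. The difference was called for 2696 genes (17.3%), higher at 24 h in 1321 (8.48%) and lower in 1375 (8.82%). For Cxcl10 the interaction was -1.23 at 6 h, a difference of -3.74 (SE 1.12, adjusted p = 0.0252). For Cxcl2 it was -0.53 at 6 h, a difference of -4.19 (SE 0.206, adjusted p = 1.16e-10). Nr4a3 had 1.37 at 6 h and a difference of 4.39 (SE 1.27, adjusted p = 0.0204). For Acod1 the value at 6 h was -5.08 and the difference -0.56 (SE 0.304, adjusted p = 0.245). Aqp9 gave 3.16 at 6 h and a difference of 0.91 (SE 0.746, adjusted p = 0.477).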

How the data were processed

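The deposited table holds read counts per gene for 21 libraries in 7 groups. Per the submitters' processing notes, the authors' tools were TopHat2 2.0.12, featureCounts from Subread 1.6.3 and edgeR 3.28.1 on GRCm38. For strandedness and for reads with several matches, the setting is not given in the sources used here. Of 47069 gene identifiers, 32832 had a symbol. Genes that passed filterByExpr (15581 of 32292 with a count, holding 99.9% of counts) were fitted over all 21 libraries in edgeR 4.0.16 (R 4.3.3) with TMM normalization and the quasi-likelihood F test, with Benjamini-Hochberg adjustment over all genes tested. Positions and promoters are those of RefSeq, GRCm38.p6.

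A gene was placed above, below or between when IL_TNF_24h was called against IL_24h and against TNF_24h. The genes named are the 10 highest and 10 lowest interactions by log2(mean CPM + 1), the 8 widest gaps above and below and the 5 widest in each direction between, 20 markers and the extremes of 17 gene lists (345 of 350 entries matched). Candidates needed a mean of at least 10 CPM in 1 group. Those for the highest and lowest interactions also had to be called in the same direction without Ctrl_0h_2 and IL_TNF_24h_1. Those for the gaps had to hold their placement without these libraries. Their IL_TNF_24h libraries also could not overlap those of IL_24h or TNF_24h. Some members are counted but not reported here by name. Other members named were chosen after their values were seen. The members and lists were chosen with earlier results of these data known. A group with 3 counts or fewer was treated as without counts.

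The common biological coefficient of variation was 22.8%. The interaction test was run on simulated data of 15358 genes. It found 49 of 100 genes given a 2-fold interaction and 94 of 100 given a 4-fold one, and 5 of its 148 calls were false. These rates describe the simulated data only, since the same test called 3758 genes in the measured libraries. Whether the rates hold there, for genes with few counts or with the libraries that stand apart, was not tested. Alternatives were other size factors, DESeq2 1.42.0, other filters, a fit of the 4 groups alone, a replicate block and leaving out libraries. Counts of any 2 libraries of a group differed by more than sampling noise.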

Additional observations from a re-analysis of the deposited data

Results flagged for a closer look

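For 2696 genes the interaction at 24 h differed from the interaction at 6 h by edgeR's test of the difference itself (24 h minus 6 h, adjusted p under 0.05). Among the genes named for the highest and lowest interactions at 24 h, the difference was higher for Nr4a3 (4.39), Spint1 (3.34), St14 (3.5), Ung (1.61) and Misp3 (3.62). It was lower for Cxcl10 (-3.74), Cd69 (-4.13), Tnfsf10 (-4.53), Cxcl2 (-4.19), Il27 (-2.90) and Ccrl2 (-3.16). All these values are on the log2 scale, and an effect of culture time and one of TNF cannot be told apart in them.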

How the results depend on the processing

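The interaction was called for 3758 genes with all libraries and for 2743 to 3992 when 1 library was left out, lower in 1523 to 2257 and higher in 1043 to 1895, the lowest without IL_24h_2. Genes placed below both numbered 207 to 368 (207 without IL_24h_3, 208 without IL_24h_2) and genes placed between with IL_24h higher 163 to 371 (163 without IL_24h_1, 165 without IL_24h_2). DESeq2's Wald test called 4380 genes, DESeq2 size factors in edgeR 3857, no filter 3895 and the fit of the 4 groups alone 3563. Pairing by the number of the labels was not seen: none of 18 same-number pairs had deviations that correlated over 0.1 (median 0.006, highest 0.0992). With 3 libraries a group and 2 libraries that stand apart, this cannot show that pairing was absent. With a replicate block the interaction was called for 3610 genes, 1683 higher and 1927 lower. Of the interactions computed for the genes named with one, under other settings, 1715 kept direction and side of the threshold, 85 lost the call, 14 gained it and 11 reversed. The reversed ones were Arg1 at 0.0187 and P2rx5 at -0.13 without both libraries, Irf7 at -1.0 without both, Nos2 at -0.66 to 1.47, Irf7 at -1.14 to 0.85 and P2rx5 at -0.24 to 3.19 with 1 library left out, and Il1rl1 at -0.00531 with no filter, -0.12 with a replicate block and -0.35 to 0.48 with 1 library left out. Of these P2rx5 alone was called with all libraries. No value is given where a setting left a group with 3 counts or fewer, as for Nos2 and Ccr7 without Ctrl_0h_2. Of the placements 479 were kept and 12 lost. None could be lost without both libraries, since holding the placement there was a condition for naming. The median position of genes higher in TNF_24h was 0.146 with a difference of at least 1, 0.145 without both libraries and 0.146 to 0.279 with 1 library left out. Ccl24 missed the threshold in 12 settings. The causes of these shifts were not tested. Levels near 0, as those of Ccl17, Retnla and Ear2 in the groups without IL, limit what the interaction can show.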
